A study of Rattus norvegicus with 9 samples.

Results

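The genes described here are 8 imprinted genes, Dlk1, Peg3, Mest, Cdkn1c, Ndn, Plagl1, Snrpn and Nnat. They were followed through every probe set that the array's annotation gives them. These genes and the gene lists below were chosen with earlier results of these data known. Of these 8 genes, 7 had a probe set of their own among the 14217 genes that could be named on the array, and Peg3 had none. The genes were covered by 9 probe sets, of which 7 are annotated to a single gene and 2 to both Snurf and Snrpn. Testing required a signal of at least 123, which was the median over all values, on 3 or more of the 9 arrays, and this kept 9956 genes and 17048 probe sets, among them 6 of the 8 genes and 8 of their 9 probe sets.

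Genomic imprinting leaves a gene active from only the maternal or only the paternal copy, according to DNA methylation that was set in the germ line and is kept through each cell division. Many imprinted genes act in growth, in the timing of cell cycle exit and in the developing brain, and loss of imprints is a known hazard of pluripotent stem cell culture. The arrays measured the total transcript of each gene and not the copy it came from, so imprinting itself was not measured here.

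Expression was compared among 3 cell populations with 3 biological replicates each. P-RPCs were dissociated without sorting from SD rat neural retina at postnatal day 1. rESC-RPC1 and rESC-RPC2 were both derived from embryonic stem cells (ESCs) of the DA rat, a single ESC line, as aggregates in the SFEBq method with Matrigel and the Wnt inhibitor IWR-1e, were given serum, and were harvested at day 16. rESC-RPC1 went into adherent culture on day 10 and into N2 medium with serum on day 14, whereas rESC-RPC2 stayed in suspension until day 14. Strain, animal tissue against culture, and stage therefore cannot be told apart between P-RPC and the ESC-derived cells, nor medium from the length of adherent culture between rESC-RPC1 and rESC-RPC2. In bulk RNA, fewer cells of a type and less RNA per cell cannot be told apart either.

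The promoters of imprinted genes are often rich in CpG, the dinucleotide that carries DNA methylation. A RefSeq table of the GRCr8 assembly held a promoter of 300 bases, from 250 bases before the annotated gene start, for 6 of the 8 genes. These windows contained 45 CpG in Dlk1, 29 in Plagl1, 18 in Mest, 16 in Peg3, 14 in Ndn and 11 in Snrpn, against a median of 7 over all 33469 promoters. The letters TGCCGC, bound by ZFP57 when methylated, were found on either strand in Dlk1, Plagl1 and Snrpn and in 11.69% of all promoters. The letters GGGGCCCC, a core bound by the Plagl1 protein (also called ZAC1), were found in Peg3 alone among the 6 and in 0.86% of all promoters. Such a match is a description of the sequence, not a binding site. The 250 bases before the start are shown for Mest and Ndn, both higher in rESC-RPC2 than P-RPC below, with each CpG in capitals. The printed stretch holds 15 CpG in Mest and 10 in Ndn.
Mest, GRCr8 chr4:60321564-60321813, + strand: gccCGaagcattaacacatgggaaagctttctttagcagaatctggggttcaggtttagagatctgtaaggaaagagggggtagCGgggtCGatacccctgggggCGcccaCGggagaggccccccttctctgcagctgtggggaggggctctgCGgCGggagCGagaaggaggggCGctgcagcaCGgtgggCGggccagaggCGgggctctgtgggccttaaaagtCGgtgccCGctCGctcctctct
Ndn, GRCr8 chr1:125260809-125261058, + strand: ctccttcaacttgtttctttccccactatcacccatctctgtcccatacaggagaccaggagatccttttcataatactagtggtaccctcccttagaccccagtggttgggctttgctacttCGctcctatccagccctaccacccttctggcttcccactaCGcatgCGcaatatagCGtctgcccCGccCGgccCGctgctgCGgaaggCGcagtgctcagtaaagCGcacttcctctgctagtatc

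The authors' scaling set the trimmed mean signal to 500.2 on every array, and the medians ranged from 113 to 128. Marker genes of many cell types differed between the populations. The summed signal of 8 measured retinal progenitor markers ranged from 68754 to 73647 in P-RPC, from 10512 to 16809 in rESC-RPC1 and from 9109 to 10326 in rESC-RPC2, and Pax6 was under the detection threshold on every rESC-RPC2 array. Mesenchyme markers (8 genes) summed to 772 to 900.1 in P-RPC, 18246 to 45698 in rESC-RPC1 and 9269 to 16742 in rESC-RPC2. Neuron markers (10 genes) summed to 25885 to 31055, 20858 to 30123 and 52865 to 58922 in the same order, and hypothalamus markers (8 genes) to 642 to 686, 4353 to 5059 and 14672 to 15401. The hypothalamus sum rested on Sst, Npvf and Nkx2-1, since the other 5 genes were under the threshold on every array, and Nkx2-1 had a lower mean in rESC-RPC2 (2081) than in rESC-RPC1 (3138). Cell cycle genes (8 genes) summed to 34824 to 36752 in P-RPC, 15915 to 18884 in rESC-RPC1 and 12836 to 15298 in rESC-RPC2. Photoreceptor markers (6 genes) summed to 20744 to 22835 in P-RPC and to at most 1372 in the ESC-derived groups. Other lists were also highest in P-RPC. Pigment epithelium genes (7, with Rpe65 under the threshold on every array) summed to 7807 to 8534 in P-RPC, 1288 to 5577 in rESC-RPC1 and 169 to 233 in rESC-RPC2. Most of the rESC-RPC1 sum was Dct, which ran the other way, with means of 1003 for P-RPC and 3017.5 for rESC-RPC1. Microglia genes (6) summed to 1065 to 1241 in P-RPC against at most 235 elsewhere. The vessel sum (3 genes), at 6470 to 6869 in P-RPC against at most 1031, rested on Kdr, with Pecam1 and Tek under the threshold on every array, and the red blood cell sum (2 genes), at 13979 to 15135 against at most 50.6, on Hbb. Astroglia genes (6) summed to 5906 to 8372 in P-RPC, 9823 to 22631 in rESC-RPC1 and 8754 to 14673 in rESC-RPC2. Slc1a3 ran the other way, with means of 4843, 3844 and 2923 in the same order, and Fabp7 ranged from 486 to 3497 within P-RPC. Gfap, Aqp4 and S100b were under the threshold on every P-RPC array, S100b on every rESC-RPC2 array too, and Aldh1l1 on every array. Replicate 1 of P-RPC differed from the others in its lens genes, which summed to 95777 against 1662 and 5158 in the other P-RPC replicates, so results of Dlk1, Cdkn1c and Plagl1, which moved most, are also given without it. The part of these marker differences in the results for imprinted genes was not tested.

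**Figure D1:**
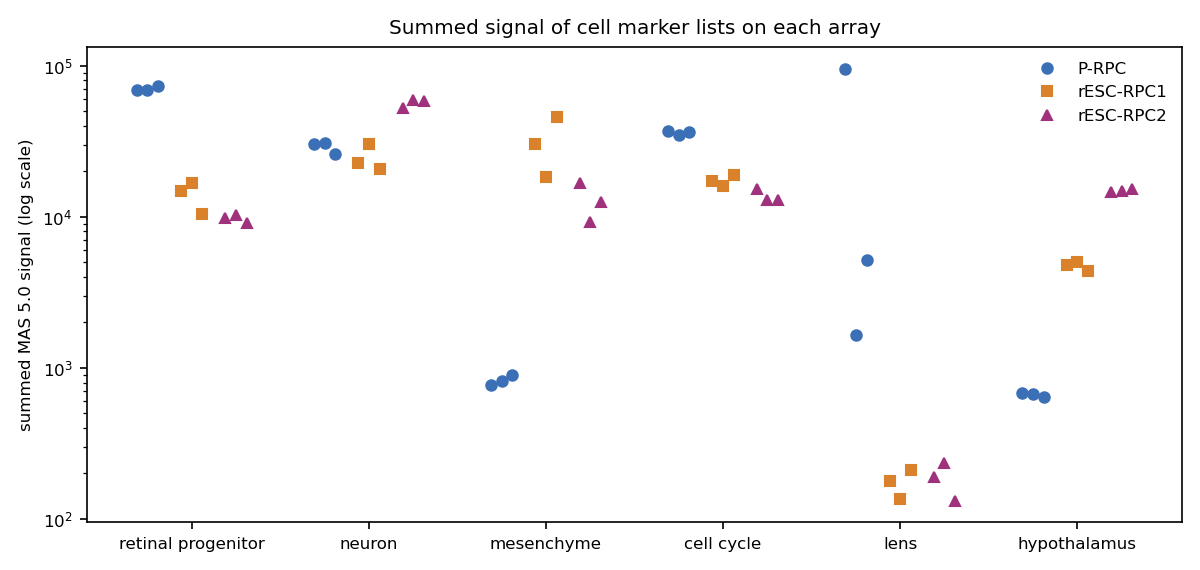
Summed MAS 5.0 signal (log scale) of 6 marker lists on each of the 9 arrays, 1 point per array. Retinal progenitor and cell cycle sums were highest in P-RPC, mesenchyme sums in rESC-RPC1, and neuron and hypothalamus sums in rESC-RPC2, and the lens sum of P-RPC replicate 1 lay far above the others.

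In both ESC-derived populations Mest was higher than P-RPC and Cdkn1c was lower. Ndn and Nnat were higher in both as well, but reached a fold of 2 only in rESC-RPC2. Dlk1 was higher in both too, but with every P-RPC array under the threshold, so the filter fixed its direction. It is included in the counts below, which describe genes chosen with earlier results of these data known. A call needed both a limma p under 0.05 after Benjamini-Hochberg adjustment over all genes tested and a fold of at least 2. In rESC-RPC1 against P-RPC, 3 of the 6 tested genes were called, 2 higher and 1 lower, while 21.5% of all tested genes were called, 12.0% higher and 9.56% lower. In rESC-RPC2 against P-RPC, 5 of 6 were called, 4 higher and 1 lower, while 23.7% of all tested genes were called, 10.7% higher and 13.0% lower. In rESC-RPC2 against rESC-RPC1 only Cdkn1c was called, and lower, while 14.3% of all tested genes were called, 5.02% higher and 9.25% lower. By probe set, 4 of 8 were called in rESC-RPC1 against P-RPC (21.9% of all probe sets), 7 of 8 in rESC-RPC2 against P-RPC (23.9%) and 3 of 8 between the ESC-derived populations (14.2%). The median log2 fold change of the 6 genes was 0.98, 1.48 and -0.09 in these comparisons, against -0.01, -0.02 and -0.03 over all genes tested. The comparisons against P-RPC share the same P-RPC arrays.

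**Figure D2:**
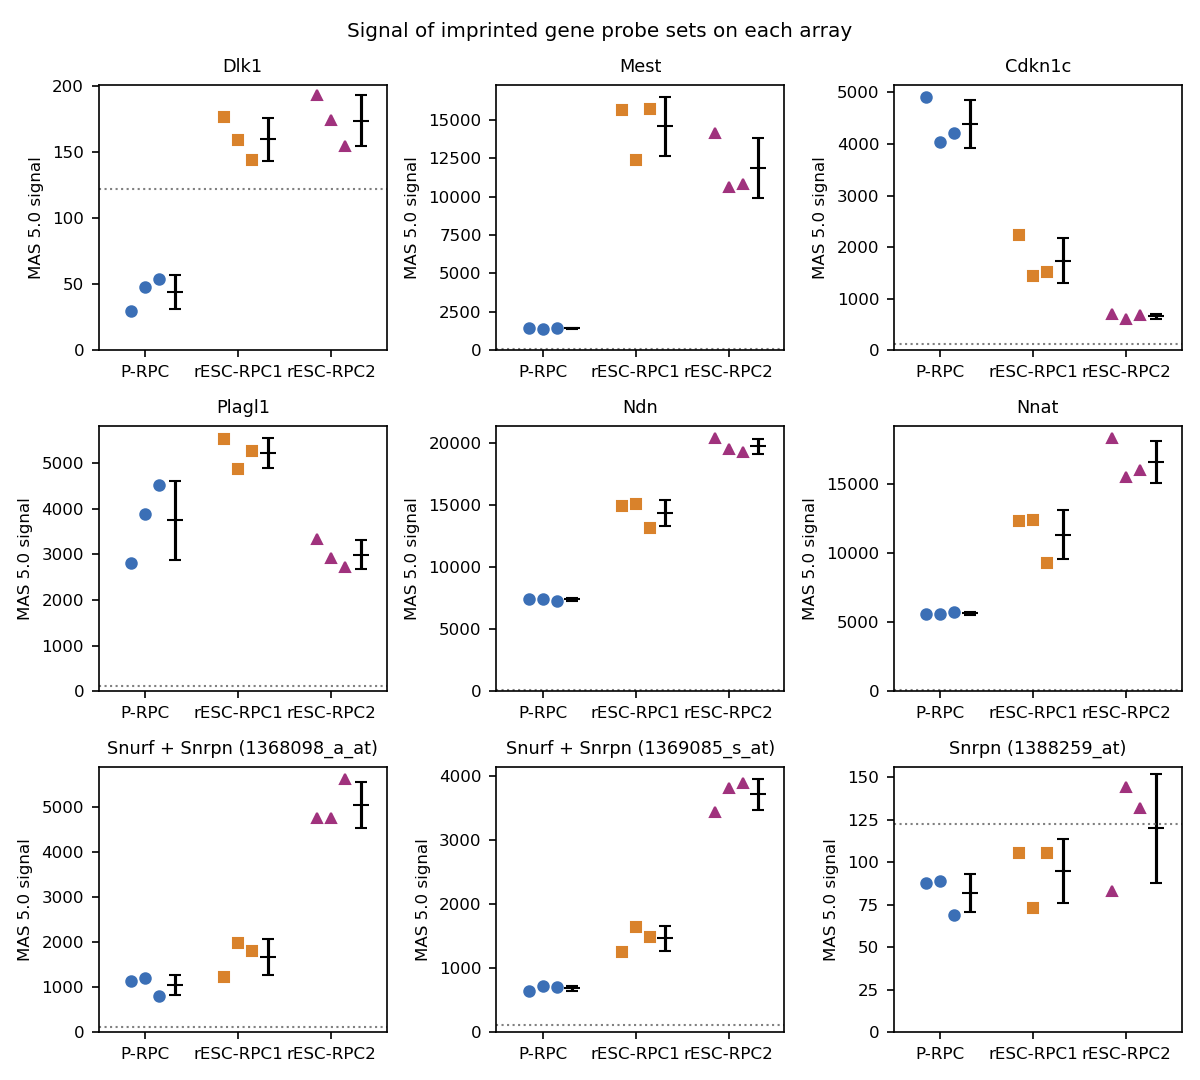
MAS 5.0 signal of the 9 probe sets of the imprinted genes on each array (points, linear axis from 0), with the mean and SD of 3 arrays per group (bars) and the detection threshold of 123 (dotted line). Mest and Dlk1 rise from P-RPC to both ESC-derived groups, Cdkn1c falls stepwise, and the probe sets annotated to both Snurf and Snrpn are highest in rESC-RPC2.

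Mest encodes a hydrolase-like protein of mesodermal and other embryonic tissue and is expressed from the paternal copy. Its signal was 1457, 1378 and 1457 in P-RPC replicates 1 to 3, 15609, 12349 and 15699 in rESC-RPC1, and 14124, 10596 and 10830.2 in rESC-RPC2. Every array of both ESC-derived groups lay far above every P-RPC array. Mest was 10.1-fold higher in rESC-RPC1 than P-RPC (log2 fold change 3.34, SE 0.12, 95% interval of the fold 8.39 to 12.2, adjusted p = 1.702e-08 in limma) and 8.21-fold higher in rESC-RPC2 (log2 fold change 3.04, adjusted p = 2.869e-08). The arrays of rESC-RPC1 and rESC-RPC2 overlapped, and their difference was -0.30 on the log2 scale (95% interval -0.57 to -0.03, adjusted p = 0.0632), which was not called. The mesenchyme marker sums given above were also higher in both ESC-derived groups. All 6 tested genes of that list were called higher than P-RPC in rESC-RPC1. In rESC-RPC2, 5 were called higher and Postn lower, and Tagln (mean 6914) was the largest part of the sum. Copg2, which lies next to Mest and encodes a coat protein of transport vesicles, ran the other way from Mest. Its mean signal was 3631 ± 244 (SD, n = 3) for P-RPC, 1808 ± 270 for rESC-RPC1 and 931 ± 54.4 for rESC-RPC2, and it fell by 1.01 and 1.96 on the log2 scale against P-RPC (adjusted p = 3.018e-05 and 2.974e-07 in limma).

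Dlk1 encodes a transmembrane protein of the Notch ligand family that restrains differentiation, and is expressed from the paternal copy. Its signal was 29.9, 48.1 and 54.2 in P-RPC, 177, 160 and 144 in rESC-RPC1, and 193, 174 and 155 in rESC-RPC2. None of the P-RPC arrays reached the detection threshold, and every ESC-derived array was only just above it. Dlk1 thus passed the filter only through the ESC-derived arrays, which fixed its direction against P-RPC. The fold of Dlk1 over P-RPC was therefore at least 1.3 in rESC-RPC1 and at least 1.41 in rESC-RPC2, as a lower bound set by the threshold. The fitted log2 fold changes were 1.90 (SE 0.26, adjusted p = 0.0001095) and 2.02 (SE 0.26, adjusted p = 6.405e-05). With signals under the threshold raised to it they became 0.38 and 0.50, and neither was called. Without P-RPC replicate 1, the lowest P-RPC array, the fitted values were 1.64 and 1.76. The ESC-derived groups overlapped, with a difference of 0.12 on the log2 scale (95% interval -0.45 to 0.69). Of the other genes of the Dlk1 domain, Meg3, a non-coding RNA expressed from the maternal copy, was not called in any comparison, with means of 1899, 2587 and 3663 for P-RPC, rESC-RPC1 and rESC-RPC2. Dio3, which encodes an enzyme that inactivates thyroid hormone, was lower in rESC-RPC2 than in rESC-RPC1 (log2 fold change -1.28, SE 0.32, adjusted p = 0.007156 in limma), and Begain was under the threshold on every array.

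Cdkn1c encodes p57, an inhibitor of cyclin-dependent kinases that acts as cells leave the cycle, and is expressed from the maternal copy. Its signal was 4912, 4043 and 4217 in P-RPC, 2238, 1446 and 1527 in rESC-RPC1, and 704, 607 and 679 in rESC-RPC2. The 3 groups did not overlap, with P-RPC highest and rESC-RPC2 lowest. Cdkn1c was 2.57-fold lower in rESC-RPC1 than P-RPC (log2 fold change -1.36, SE 0.15, adjusted p = 3.399e-05) and 6.61-fold lower in rESC-RPC2 (log2 fold change -2.72, adjusted p = 2.596e-07). It was 2.57-fold lower in rESC-RPC2 than in rESC-RPC1 (log2 fold change -1.36, adjusted p = 6.281e-05), the only call among the 6 genes between these groups. Without P-RPC replicate 1, the highest array, the log2 fold changes against P-RPC were -1.28 and -2.64. The cell cycle sums were also lower in both ESC-derived groups, with 5 of 8 called lower than in P-RPC in each, and their median log2 fold change between rESC-RPC2 and rESC-RPC1 was -0.33.

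Cdkn1c lies in a large imprinted cluster, and no other tested gene of that cluster was called lower than P-RPC. Cd81, a cell surface tetraspanin, was higher in rESC-RPC1 than P-RPC (log2 fold change 1.59, SE 0.05, adjusted p = 8.193e-09), with means of 4984, 15007 and 7861 for P-RPC, rESC-RPC1 and rESC-RPC2. Osbpl5, which encodes a lipid transfer protein, had log2 fold changes against P-RPC of 1.07 in rESC-RPC2 (SE 0.19, adjusted p = 0.0007602, called) and 0.98 in rESC-RPC1 (adjusted p = 0.001411, just under the required fold), with means of 354, 721 and 746. Tssc4 and Nap1l4 were not called in any comparison, with log2 fold changes from -0.47 to 0.28. Kcnq1, Phlda2, Slc22a18, Ascl2 and Tspan32 were under the threshold on every array, so they were not tested.

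Plagl1 encodes a zinc finger transcription factor that slows growth and regulates other imprinted genes, and is expressed from the paternal copy. Its signal was 2815, 3893 and 4514 in P-RPC, 5530.2, 4877 and 5254 in rESC-RPC1, and 3344, 2913 and 2724 in rESC-RPC2. The rESC-RPC1 arrays lay above all others, whereas rESC-RPC2 overlapped P-RPC. No comparison was called: the log2 fold change was 0.51 in rESC-RPC1 (95% interval 0.17 to 0.84, adjusted p = 0.0142) and -0.30 in rESC-RPC2 (95% interval -0.63 to 0.04, adjusted p = 0.1059) against P-RPC. Between the ESC-derived groups it was -0.81 (SE 0.15, adjusted p = 0.001447), below the fold required. Without P-RPC replicate 1, the lowest P-RPC array, the log2 fold changes against P-RPC were 0.31 and -0.49.

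Ndn encodes necdin, a MAGE family protein of postmitotic neurons that restrains proliferation, and is expressed from the paternal copy. Its signal was 7489, 7479 and 7282 in P-RPC, 14942, 15084 and 13170.4 in rESC-RPC1, and 20434, 19515 and 19329 in rESC-RPC2. The groups did not overlap and replicates lay close together. Ndn was 2.66-fold higher in rESC-RPC2 than P-RPC (log2 fold change 1.41, SE 0.06, adjusted p = 4.904e-08). The log2 fold change of 0.95 in rESC-RPC1 (95% interval 0.82 to 1.09, adjusted p = 5.677e-07) fell short of the required fold, and it was 1.02 and called without rESC-RPC1 replicate 3. Between rESC-RPC2 and rESC-RPC1 the log2 fold change was 0.46 (SE 0.06, adjusted p = 0.0001609), not called. The neuron marker sums were higher in rESC-RPC2 than in both other groups, with 8 of 10 markers called higher than in rESC-RPC1 and 5 of 10 higher than P-RPC. In rESC-RPC1 against P-RPC, 0 of the 10 were called higher and 1 lower, with a median log2 fold change of -0.38. A link between these markers and Ndn was not tested.

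Snrpn encodes a protein of the splicing machinery of neurons and shares its transcript with Snurf, a short upstream reading frame, both from the paternal copy. The probe set of Snrpn alone gave 87.8, 88.9 and 69.3 in P-RPC, 106, 73.4 and 106 in rESC-RPC1, and 83.4, 144 and 132 in rESC-RPC2, and reached the threshold only on rESC-RPC2 replicates 2 and 3, so it was not tested. Of the probe sets annotated to both Snurf and Snrpn, the first (its ID ends in a_at) gave 1130.4, 1216 and 802 in P-RPC, 1221, 1983 and 1806 in rESC-RPC1, and 4751, 4740.4 and 5614 in rESC-RPC2. The other (its ID ends in s_at) gave 641, 722 and 703 in P-RPC, 1256, 1648 and 1491 in rESC-RPC1, and 3433, 3805 and 3893 in rESC-RPC2. On both, every rESC-RPC2 array lay above every array of the other groups. Against P-RPC the log2 fold changes in rESC-RPC2 were 2.28 (SE 0.19, adjusted p = 3.429e-06 over probe sets) and 2.43 (SE 0.11, adjusted p = 5.532e-08). The probe sets disagreed in rESC-RPC1 against P-RPC, at 0.66 (adjusted p = 0.01298, not called) and 1.08 (adjusted p = 1.482e-05, called). Both were higher in rESC-RPC2 than in rESC-RPC1, by 1.62 (adjusted p = 8.304e-05) and 1.35 (adjusted p = 8.814e-06) on the log2 scale. RefSeq lists pseudogenes of Snrpn, Snurf, Mest and Ndn, and whether the probes match them was not checked.

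Ndn and Snrpn belong to the same cluster, the rat counterpart of the Prader-Willi and Angelman region. Peg12, a paternally expressed gene there, was higher than P-RPC by 2.74-fold in rESC-RPC1 (log2 fold change 1.46, SE 0.14, adjusted p = 1.02e-05) and by 2.83-fold in rESC-RPC2 (adjusted p = 7.438e-06), with means of 583, 1609.9 and 1649 for P-RPC, rESC-RPC1 and rESC-RPC2. Ube3a, a ubiquitin ligase expressed from the maternal copy in neurons, was not called on any of its 3 tested probe sets, which gave log2 fold changes from -0.54 to -0.10 over the 3 comparisons. Atp10a, which encodes a lipid flippase, had signals of 248, 361 and 371 in rESC-RPC1 and no array at the threshold in the other groups. It passed the filter through rESC-RPC1 alone, so its direction was fixed by that filter. The excess over each other group was at least 2.62-fold.

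Nnat encodes neuronatin, a small membrane protein of the developing brain, from the paternal copy. Its signal was 5566, 5610.1 and 5738 in P-RPC, 12315, 12418 and 9304 in rESC-RPC1, and 18331, 15496 and 16002 in rESC-RPC2. The groups did not overlap, and rESC-RPC2 was highest. Nnat was 2.94-fold higher in rESC-RPC2 than P-RPC (log2 fold change 1.55, SE 0.11, adjusted p = 8.818e-07). In rESC-RPC1 the log2 fold change was 1.00 (95% interval 0.76 to 1.23, adjusted p = 2.225e-05), just under the required fold. It was called with median centring (1.02), without P-RPC replicate 3 (1.01) and without rESC-RPC1 replicate 3 (1.13). Between the ESC-derived groups it was 0.56 (SE 0.11, adjusted p = 0.001661), not called. Blcap, the gene within which Nnat lies, was not called in any comparison, with means of 1313, 771 and 1172 for P-RPC, rESC-RPC1 and rESC-RPC2.

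**Figure D3:**
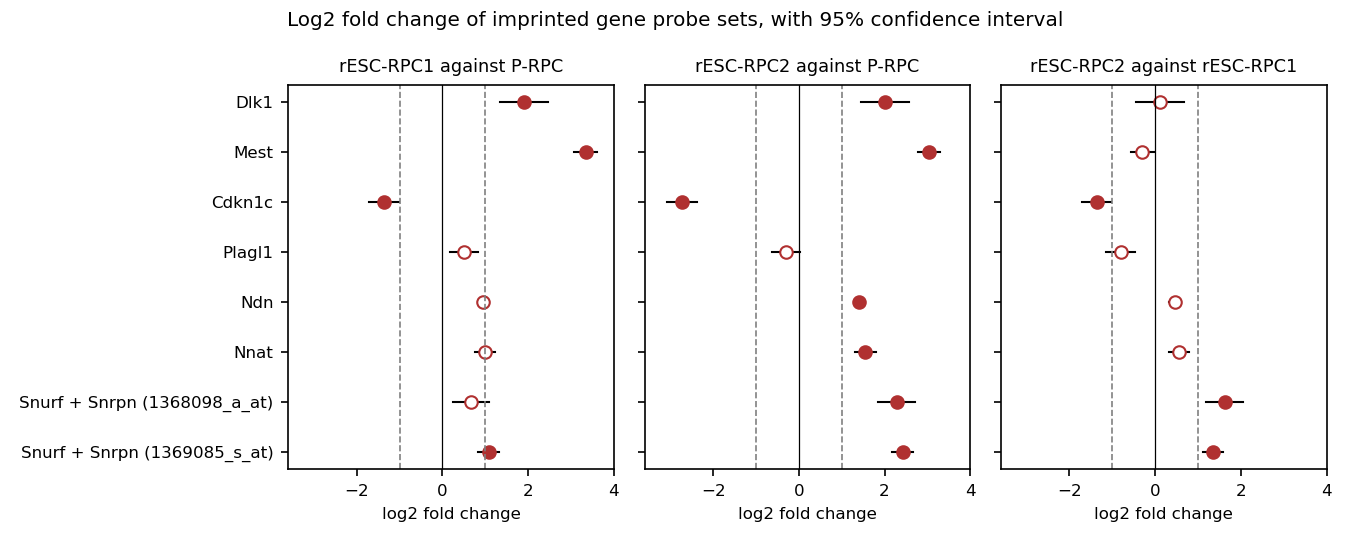
Log2 fold change (points) and 95% confidence interval (bars) of the 8 tested probe sets in the 3 comparisons, with filled points for calls and dashed lines at the required fold. Mest is farthest to the right against P-RPC, Cdkn1c is to the left in all 3 panels, and Ndn and Nnat sit at the dashed line in rESC-RPC1.

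Peg3, a paternally expressed zinc finger gene, was not measured, since the annotation used here gives it no probe set. Usp29, a ubiquitin protease gene, is its nearest measured neighbour, with no protein-coding gene between them in RefSeq, and is also expressed from the paternal copy. Its signal was 242, 227 and 219.8 in P-RPC, 816, 1005 and 787 in rESC-RPC1, and 2304, 2969 and 2724 in rESC-RPC2. The groups did not overlap. Usp29 was 3.77-fold higher in rESC-RPC1 (log2 fold change 1.91, SE 0.13, adjusted p = 7.307e-07) and 11.6-fold higher in rESC-RPC2 (3.53, adjusted p = 1.466e-08) than P-RPC, and 3.07-fold higher in rESC-RPC2 than in rESC-RPC1 (1.62, adjusted p = 6.469e-06). No value for Peg3 follows from this.

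The same comparisons were read in a list of 65 other genes known as imprinted in rodents, of which 50 were on the array and 32 were tested. This list too was chosen with earlier results of these data known, so its counts are a description. In rESC-RPC1 against P-RPC 17 of the 32 were called (53.1%, against 21.5% of all tested genes), 11 higher and 6 lower. In rESC-RPC2 against P-RPC 14 were called (43.8%, against 23.7%), 8 higher and 6 lower, and in rESC-RPC2 against rESC-RPC1 7 were called (21.9%, against 14.3%), 4 higher and 3 lower. The median log2 fold change of the list was 0.50, 0.26 and -0.01, against -0.01, -0.02 and -0.03 over all tested genes. Without P-RPC replicate 1, 15 and 11 of 29 tested genes were called against P-RPC, and leaving out another P-RPC array gave 13 to 15 and 12 of 29, since genes that reached the threshold only in P-RPC then no longer met the filter. Atp10a, Igf2, Pon3 and Rasgrf1 passed the filter through only 1 group each, so their difference from the others was fixed by that filter. Ddc reached the threshold on no P-RPC array, so its direction against P-RPC was fixed as well.

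Among those higher, Zdbf2 had means of 843 ± 60.6 (SD, n = 3) for P-RPC, 2581 ± 733 for rESC-RPC1 and 9042 ± 1620.1 for rESC-RPC2, and log2 fold changes of 1.58 and 3.41 against P-RPC (adjusted p = 4.673e-05 and 2.2e-07). Nap1l5, a gene of the nucleosome assembly family, had means of 1447 ± 60.6, 5165 ± 1143 and 11937 ± 1199, with log2 fold changes of 1.81 and 3.04 (adjusted p = 1.756e-06 and 5.865e-08). Like Usp29, both were higher in rESC-RPC2 than in rESC-RPC1, by 1.83 and 1.23 on the log2 scale (adjusted p = 3.406e-05 and 5.148e-05). Sgce, which encodes epsilon-sarcoglycan, was higher than P-RPC by 1.68 and 1.28 (adjusted p = 1.474e-07 and 7.708e-07). Ddc, an enzyme of dopamine synthesis, was under the threshold on every P-RPC array and was at least 1.34-fold and 2.01-fold higher in rESC-RPC1 and rESC-RPC2 (adjusted p = 0.000273 and 2.457e-05).

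Among those lower, Grb10, an adaptor that dampens insulin and growth factor signalling, was above the threshold in every group. Its signal was 5040.4, 5187 and 5556 in P-RPC, 246, 265 and 284 in rESC-RPC1, and 801, 860.3 and 609.8 in rESC-RPC2. No group overlapped another. Grb10 was 19.9-fold lower in rESC-RPC1 (log2 fold change -4.31, SE 0.13, adjusted p = 6.185e-09) and 7.02-fold lower in rESC-RPC2 (-2.81, adjusted p = 6.535e-08) than P-RPC, and it was 2.83-fold higher in rESC-RPC2 than in rESC-RPC1 (adjusted p = 1.112e-05), with a further probe set called in the same directions. Hm13, which encodes an intramembrane protease, had a mean of 1514 for P-RPC against 316 for rESC-RPC1 and 303.5 for rESC-RPC2. It fell by 2.29 and 2.34 on the log2 scale against P-RPC (adjusted p = 4.606e-06 and 3.578e-06). A dimmer probe set of Hm13, under the threshold on every ESC-derived array, was called lower as well, with fitted log2 fold changes of -5.57 and -3.84 that are no bound on the fall. Igf2, a fetal growth factor, was at least 3.77-fold lower in each ESC-derived group than P-RPC, with signals of 369, 485 and 553 in P-RPC and no ESC-derived array at the threshold. Pon3 was at least 4.95-fold lower and Rasgrf1 at least 2.14-fold lower in each. H19, a non-coding RNA beside Igf2, varied among replicates, with 912, 951 and 695 in P-RPC, 7513, 1659 and 5624 in rESC-RPC1, and 634, 577 and 349 in rESC-RPC2. It was 4.88-fold higher in rESC-RPC1 than P-RPC (log2 fold change 2.29, SE 0.46, adjusted p = 0.001586) and 8.19-fold lower in rESC-RPC2 than in rESC-RPC1 (-3.03, adjusted p = 0.0004027). Among the rESC-RPC1 arrays, replicate 2 was lowest both for H19 and for the mesenchyme sum. H19 was highest in replicate 1 and that sum in replicate 3, and a link between them was not tested. The probe sets of Gnas disagreed, at 0.50 and 2.44 on the log2 scale in rESC-RPC2 against P-RPC, as did those of Casd1 in rESC-RPC1 and Igf2r in rESC-RPC2, where only 1 of the 2 probe sets was called. These 3 genes were named after their values were seen, for that disagreement.

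**Figure D4:**
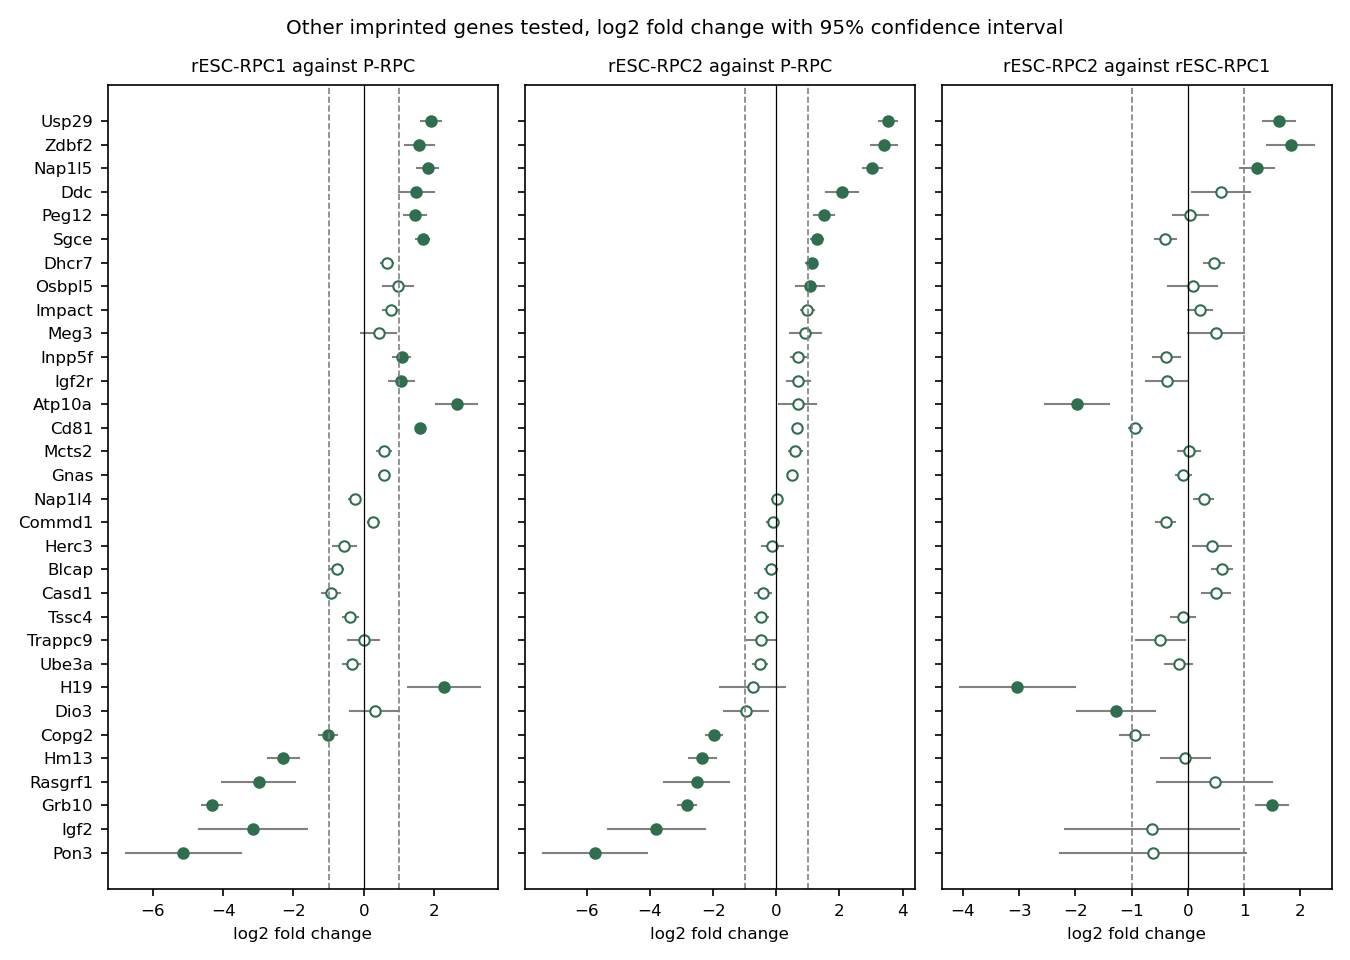
Log2 fold change (points) and 95% confidence interval (bars) of the 32 other imprinted genes tested, ordered by rESC-RPC2 against P-RPC, with filled points for calls and dashed lines at the required fold. Usp29, Zdbf2 and Nap1l5 are filled and to the right in all 3 panels, and Grb10 lies at -4.31 and -2.81 against P-RPC and on the right between the ESC-derived groups.

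Genes of DNA methylation and imprint maintenance were read next, a list of 30 of which 25 were on the array and 24 were tested. In rESC-RPC1 against P-RPC 4 were called, all lower, and in rESC-RPC2 against P-RPC 4 were called, 1 higher and 3 lower. This share of 16.7% in each lay under the 21.5% and 23.7% of all tested genes, and 1 call between the ESC-derived groups (4.17%) lay under their 14.3%, so these counts are no result about the list. The median log2 fold change was -0.44, -0.38 and 0.10 in the 3 comparisons, against -0.01, -0.02 and -0.03 over all tested genes. Uhrf1, which brings the maintenance methyltransferase to replicating DNA, fell by 2.31 in rESC-RPC1 and by 2.21 in rESC-RPC2 on the log2 scale (adjusted p = 7.311e-07 and 8.818e-07). Hells, a remodeller needed for DNA methylation, fell by 1.86 and 1.64 (adjusted p = 4.692e-07 and 9.451e-07), and Rif1, a replication timing factor, fell by 2.17 and 1.52 (adjusted p = 1.955e-07 and 1.949e-06). Ehmt1, a histone H3 lysine methyltransferase, fell by 1.09 in rESC-RPC1 (adjusted p = 3.864e-06). Uhrf1 and Hells are expressed in dividing cells, and the cell cycle sums given above were lower in the same groups. Whether these falls are linked was not tested. Dnmt1, the maintenance methyltransferase, was not called, at -0.48 and -0.05 against P-RPC.

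Zfp57, a zinc finger protein that binds methylated imprinting control regions and protects them, was the only gene of that list called higher. Its signal was 464, 422 and 464 in P-RPC, 567, 649 and 601 in rESC-RPC1, and 1324, 1212 and 1196 in rESC-RPC2. Every rESC-RPC2 array lay above all others. Zfp57 was 2.77-fold higher in rESC-RPC2 than P-RPC (log2 fold change 1.47, SE 0.10, adjusted p = 6.546e-07) and 2.05-fold higher than in rESC-RPC1 (1.04, adjusted p = 1.834e-05), where it was the only call. Without rESC-RPC1 replicate 1 the count of called genes there was 0 in limma. In rESC-RPC1 against P-RPC its log2 fold change was 0.43 (adjusted p = 0.003031), not called.

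**Figure D5:**
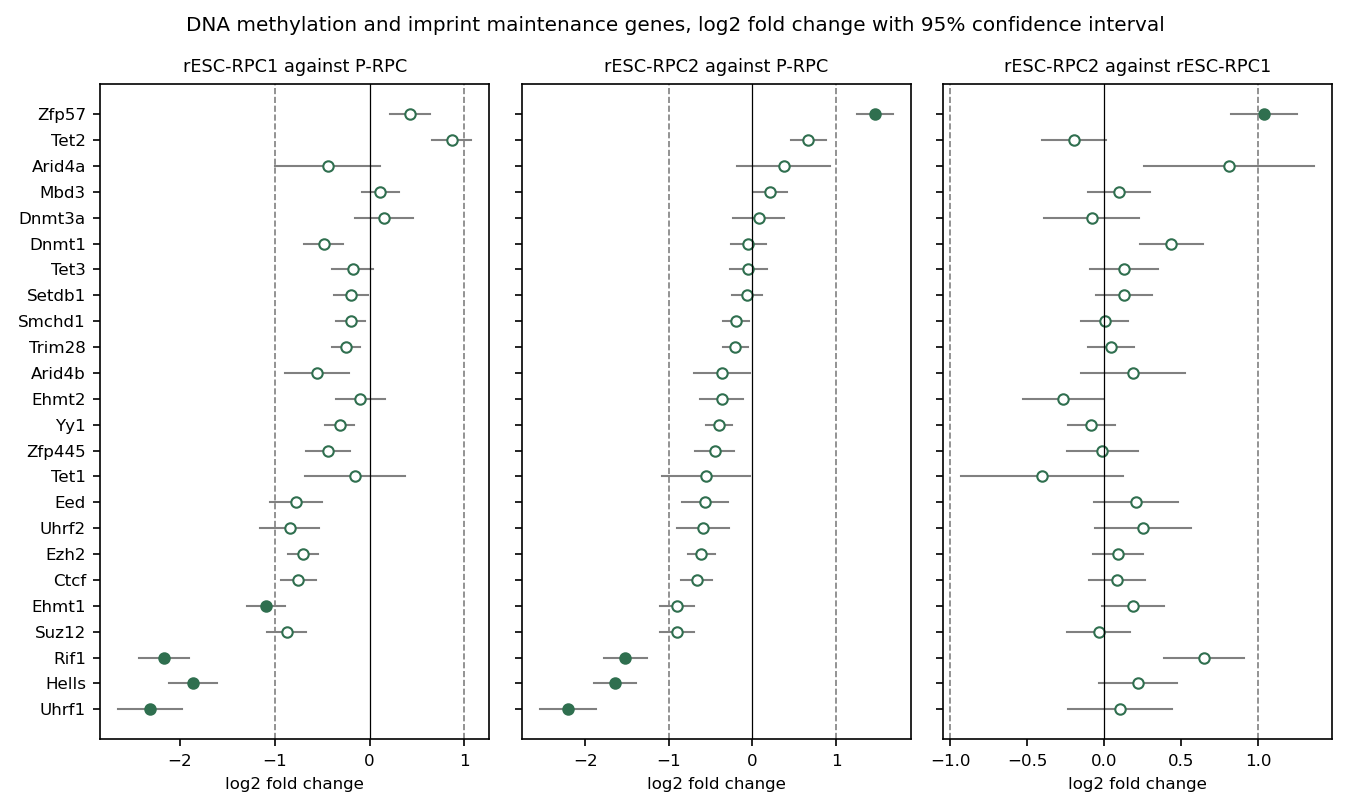
Log2 fold change (points) and 95% confidence interval (bars) of 24 DNA methylation and imprint maintenance genes, with filled points for calls and dashed lines at the required fold. Uhrf1, Hells and Rif1 lie to the left of the dashed line against P-RPC, and Zfp57 lies to the right in both comparisons of rESC-RPC2.

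The genes whose log2 signals ran most like those of each imprinted gene over the 9 arrays were named by Pearson's r, as a description, since the arrays fall into 3 groups and any gene with the same order of groups scores high. Nnat ran most like Ndn (r = 0.99), and Ndn most like Slc25a25, a mitochondrial carrier, at the same r of 0.99, followed by Man1b1 and Rprm. Mest ran most like Itprid2 (r = 0.998), Palld and Cavin3. Palld, which encodes an actin-binding protein, had means of 442, 8647 and 7569 for P-RPC, rESC-RPC1 and rESC-RPC2. Cdkn1c ran most like Sun2, Stxbp3 and C2h4orf33 (r = 0.99 each), and Dlk1 most like Mt2A, Slc25a1 and Ssbp2 (r = 0.98 each). Plagl1 ran most like Atxn1l and Naglu (r = 0.97 each). An r over 0.95 was reached by 352 genes for Mest, 270 for Cdkn1c, 226 for Ndn, 148 for Nnat and 121 for Dlk1, but by 2 for Plagl1.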

How the data were processed

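The deposited values are linear intensities, MAS 5.0 signals per probe set of the Rat Genome 230 2.0 array, which the authors computed after background removal. The version of MAS5 is not given in the sources used here. Of 31099 probe sets, 57 controls were left out, and 20826 of the others carry 1 gene symbol, 436 several and 9780 none in the platform annotation. Before taking log2, signals were floored at 1, and nothing was rescaled.

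The log2 values of all 9 arrays were fitted in R 4.3.3 with limma 3.58.1 (lmFit, eBayes with a variance trend), 1 mean per group and no covariate. Each gene was read from the probe set with its highest mean. P-values were adjusted by Benjamini-Hochberg over 9956 genes, or over 17048 probe sets for the shared Snurf and Snrpn probe sets. The median over all values, a signal of 123 (log2 6.94), served as detection threshold. Where every array of a group lay under it, a fold is given as at least the ratio of the other group's mean to the threshold, on the log2 scale. Errors of signals are SDs. The number of arrays limits the precision.

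All 8 genes were named with every probe set, then measured neighbours in their clusters, up to 8 called genes of the other imprinted list and 4 of the maintenance list per comparison by size, and the 3 genes most alike. The members and gene lists were chosen with earlier results of these data known. Which parental copy is expressed was taken from knowledge of rodents, and can differ by tissue. The older list symbol of Hm13 was updated through RefSeq synonyms after the data were seen. Alternatives changed the normalization (quantile, median centring), the filter, the fold limit, a pseudocount of 16, raising of low signals to the threshold, the variance trend, the methods' t-test, the mean over probe sets and a replicate block, and left out each array in turn. Counting the shared probe sets as Snrpn was added after seeing the data. The fit was tested on simulated data. Figures were drawn with matplotlib 3.10.9, and tables were handled with pandas 2.3.3.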

Additional observations from a re-analysis of the deposited data

Results flagged for a closer look

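Of the 8 tested probe sets, 3 differed by at least 2-fold between the ESC-derived populations in their effect against P-RPC, by limma's test of rESC-RPC2 against rESC-RPC1. Over all probe sets tested, 14.2% were called there. Of the 3, 2 are annotated to the same genes, Snurf and Snrpn. By gene, 1 of 6 was called (16.7%), near the 14.3% of all tested genes. Ndn, Nnat and Plagl1 differed by less than that, with log2 differences of 0.46, 0.56 and -0.81 (adjusted p = 0.0001609, 0.001661 and 0.001447). The effect on Cdkn1c was lower in rESC-RPC2 by a log2 difference of -1.36, in all 3 arrays. The effects on the probe sets annotated to both Snurf and Snrpn were higher in rESC-RPC2, by 1.62 for the probe set whose ID ends in a_at and by 1.35 for the one whose ID ends in s_at, in all 3 arrays. Leaving out any single array gave 3 such calls each time. Neuron marker sums were higher in rESC-RPC2 as well, as was the hypothalamus sum, which rests on 3 of its 8 genes with Nkx2-1 lower in rESC-RPC2, and their part in these differences was not tested.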

How the results depend on the processing

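Over the alternatives run, no single gene value called in the main fit or the alternative reversed its direction. Changes of sign in values uncalled in both were not counted. Of the single gene values, 351 kept their call or stayed uncalled. A call was gained by 4 (Ndn in rESC-RPC1 without rESC-RPC1 replicate 3, and Nnat as given above) and lost by 2 (Dlk1, by raising low signals to the threshold). The fold limit moved the counts most. With a fold of at least 1.5, 3854, 4170 and 2918 of all genes were called in rESC-RPC1 against P-RPC, rESC-RPC2 against P-RPC and rESC-RPC2 against rESC-RPC1, and with a fold of at least 4, 816, 799 and 284. For the 8 imprinted genes, 5 were called in rESC-RPC1 against P-RPC and 2 between the ESC-derived groups at 1.5, and 1, 3 and 0 at 4 in the same order. For the other imprinted genes, 22 were called in rESC-RPC2 against P-RPC at 1.5, and 7, 9 and 1 at 4. For the maintenance genes 10, 10 and 3 were called at 1.5, and 2, 1 and 0 at 4. Counting the shared Snurf and Snrpn probe sets as Snrpn gave 2 calls between the ESC-derived groups. Leaving out each array in turn gave 3 to 5 imprinted genes (3 to 6 probe sets) in rESC-RPC1 against P-RPC, with 5 without rESC-RPC1 replicate 3, and 0 to 1 maintenance genes between the ESC-derived groups. The causes were not tested.

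The replicate numbers did not pair the arrays: deviations of same-numbered arrays correlated from -0.04 to 0.27, and 1 of the 9 correlations was over 0.1. The replicate block gave 2148, 2363 and 1426 calls over all genes, and 3, 5 and 1 among the imprinted genes.

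Differences under 2-fold with a low adjusted p, such as Ndn in rESC-RPC1, are uncalled by the fold limit alone. Dlk1, Snrpn's own probe set and every fold given as "at least" are limited by signal close to the threshold.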

Other observations

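Grouped by the copy known to be expressed in rodents, the 8 genes and the other imprinted genes together gave 18 tested genes expressed from the paternal copy and 19 from the maternal copy. Grb10, expressed from either copy by tissue, was left out. The copy expressed can differ by tissue for other genes as well, and which copy was active in these cells was not measured. Of the paternal genes, 9 were called higher and 2 lower in rESC-RPC1 against P-RPC, 10 higher and 2 lower in rESC-RPC2 against P-RPC, and 3 higher and 1 lower between the ESC-derived groups. Over all tested genes the shares called higher and lower were 12.0% and 9.56%, 10.7% and 13.0%, and 5.02% and 9.25%. Of the maternal genes, 4 were called higher and 4 lower, 2 higher and 4 lower, and 0 higher and 3 lower in the same comparisons, each by limma. The median log2 fold change was 1.04, 1.35 and 0.17 over the paternal genes and -0.0009, -0.12 and -0.16 over the maternal genes. Among the other imprinted genes alone, 7 of 13 paternal and 4 of 18 maternal genes rose in rESC-RPC1 against P-RPC, as did 6 of 13 and 2 of 18 in rESC-RPC2. Igf2 and Rasgrf1, the paternal genes called lower against P-RPC, and Pon3 and Atp10a among the maternal calls passed the filter through only 1 group, which fixed their direction. Dlk1 and Ddc, counted among the paternal genes higher than P-RPC, reached the threshold on no P-RPC array, so that direction was fixed too. The difference between the groups of genes was not tested, and genes of 1 cluster are not independent.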
